A study of Mus musculus with 6 samples.

Results

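Serum response factor (Srf), its 2 myocardin-related coactivators Mkl1 and Mkl2, and 7 of their cytoskeletal target genes (Tagln, Cnn1, Myl9, Fhl1, Fhl2, Lmod1 and Vcl) were followed in differentiating mouse muscle stem cells with and without a block of lysyl oxidase. The genes were taken by symbol from the table of counts, in which all 10 were present among 18864 gene symbols. Lysyl oxidases cross-link collagen and elastin outside the cell, and beta-aminopropionitrile (BAPN) inhibits them irreversibly. Satellite cells, which repair skeletal muscle, came from the gastrocnemius of C57Bl/6 mice (the strain entry reads C56Bl/6) and were preplated to deplete fibroblasts. They were grown on 4% matrigel and moved to differentiation medium, with 0.25% BAPN for 24 h in 3 libraries and without it in 3 control libraries. The sources disagree on age, which the labels put at 8 weeks and the protocol for growth at 6 weeks, and on serum, named as 4% horse in the series text but as 10% fetal calf in that protocol. The comparison asks how these genes stand when satellite cells begin to differentiate while matrix cross-linking is inhibited.

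SRF is a transcription factor that binds DNA at a short palindromic element, the CArG box. The myocardin-related factors MRTF-A (the product of Mkl1) and MRTF-B (Mkl2) are held in the cytoplasm by monomeric actin. When RhoA signalling drives actin into filaments they are released, enter the nucleus and act with SRF on genes for actin, actin-binding proteins and adhesion components. A second set of SRF partners, the ternary complex factors of the ELK family, directs SRF to immediate early genes. In skeletal muscle, SRF is required for the expression of skeletal alpha-actin and for fibre growth.

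Total counts ran from 17125602 to 18682099 reads per library, and values below are normalized counts, the count divided by the authors' size factor for that library. Replicates 1 and 2 of each group lay close together (chi-square per gene 2.12 with BAPN and 2.27 in controls, where counting noise alone gives 1), while replicate 3 stood apart from them in both groups (19.7 to 22.13). Libraries of different groups were farther apart than that (61.93 to 110.35). Results are also given with replicates 1 and 2 of a group summed, a fit that called fewer genes (5.90% lower and 5.22% higher). The myogenic markers Myog, Cdh15 and Ckm were abundant in all libraries, and markers of other cell types are given below. The RNA integrity number was below 7.5 in 2 samples that no label identifies, and its part in the results was not tested.

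The CArG box was searched for in the proximal promoters. The RefSeq promoter windows (GRCm38.p6, 250 bases before to 50 after each start site) held it in 5 of the 9 member genes that have a window, which are Srf, Myl9, Fhl1, Fhl2 and Vcl. No match was found in the windows of Mkl1, Mkl2, Cnn1 and Lmod1, and Tagln has no window. Boxes outside the windows, or with a base that departs from the consensus, were not searched for. Among all genes with a window, 488 of 27025 (1.81%) held at least 1 box. The consensus reads the same on both strands, so 1 search covers both. The windows are printed because they show the boxes in their setting, on the strand of the gene from 5′ to 3′ with the CArG boxes in capitals. The 250 bases before each start are printed, cut at the first base that the GENCODE M21 annotation places in an exon. For Fhl1 and for start site 1 of Fhl2 that cut would fall before the end of the box. For these, 30 bases around the box are given uncut, and they can include exon bases. M21 places 87 (Fhl1) and 223 (Fhl2, start site 1) of the 250 bases in exons.
Srf, chr17:46556176-46556412: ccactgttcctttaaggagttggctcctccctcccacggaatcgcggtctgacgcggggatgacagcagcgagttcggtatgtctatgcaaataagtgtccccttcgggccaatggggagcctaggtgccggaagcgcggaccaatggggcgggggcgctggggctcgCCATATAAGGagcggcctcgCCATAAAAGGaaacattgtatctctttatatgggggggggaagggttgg
Myl9, chr2:156775214-156775419: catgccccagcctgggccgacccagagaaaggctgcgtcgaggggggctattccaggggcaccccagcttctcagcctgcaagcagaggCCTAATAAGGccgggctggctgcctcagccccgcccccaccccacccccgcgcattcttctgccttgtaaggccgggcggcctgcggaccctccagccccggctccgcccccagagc
Fhl1, chrX:56779571-56779600: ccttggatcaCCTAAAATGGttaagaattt
Fhl2, start site 1, chr1:43196838-43196867: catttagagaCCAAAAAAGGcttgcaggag
Fhl2, start site 2, chr1:43163962-43164211: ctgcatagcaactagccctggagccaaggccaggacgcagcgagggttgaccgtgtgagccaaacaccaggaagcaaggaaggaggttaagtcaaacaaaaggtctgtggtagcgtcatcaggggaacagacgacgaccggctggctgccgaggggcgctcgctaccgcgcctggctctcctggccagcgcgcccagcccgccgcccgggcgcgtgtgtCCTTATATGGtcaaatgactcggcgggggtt
Vcl, chr14:20929148-20929397: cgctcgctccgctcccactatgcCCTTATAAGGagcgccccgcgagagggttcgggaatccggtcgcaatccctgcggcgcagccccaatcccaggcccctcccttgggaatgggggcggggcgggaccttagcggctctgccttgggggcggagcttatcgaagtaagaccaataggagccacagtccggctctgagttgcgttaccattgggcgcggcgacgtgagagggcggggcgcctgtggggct
The Srf window holds a pair of boxes, beginning at positions -82 and -62 from the start site. The box of Myl9 begins at -161, that of Fhl1 at -102, those of Fhl2 at -96 and -31 from their respective start sites, and that of Vcl at -227. The Vcl box lies farthest from the start site and the second Fhl2 box nearest. These matches are letters in a window and were not tested for binding.

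Across the members, the genes that build or bind actin and myosin filaments were mostly lower with BAPN, Srf was moderately lower, and the coactivators were not lower. The members were chosen with earlier results of these data known. Of the 10 members, 9 had a mean of 10 or more normalized counts in the 6 libraries and were tested. In edgeR's quasi-likelihood test, with p-values adjusted over 13716 genes and a threshold of 0.05, 5 of the 9 fell (Srf, Tagln, Myl9, Fhl1 and Lmod1), 1 rose (Mkl2) and 3 were not called (Mkl1, Fhl2 and Vcl). Over all genes tested, 36.4% were called, 20.8% lower and 15.6% higher. A fall of at least 2-fold was called for 3 members (Myl9, Tagln and Fhl1) and for 2.95% of all genes. The median log2 fold change, BAPN over control, was -0.44 over the 9 members and -0.03 over all genes. The values of the 6 libraries did not overlap between groups in 7 of the 9 members (6 lower and 1 higher), where 50.9% of all genes tested showed no overlap (28.5% lower and 22.4% higher). With the replicate number as a block, 7 members fell and 1 rose, where 27.0% of all genes fell and 20.3% rose. With replicates 1 and 2 of each group summed into 1 library, 4 members fell (Srf, Tagln, Myl9 and Fhl1) and 0 rose, where 5.90% of all genes fell and 5.22% rose. Without replicate 3 of both groups 7 members fell and 2 rose, where 31.1% of all genes fell and 23.5% rose. Leaving out 1 library at a time gave 4 to 6 members that fell, where 1862 to 3113 of the 13716 genes fell.

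**Figure D1:**
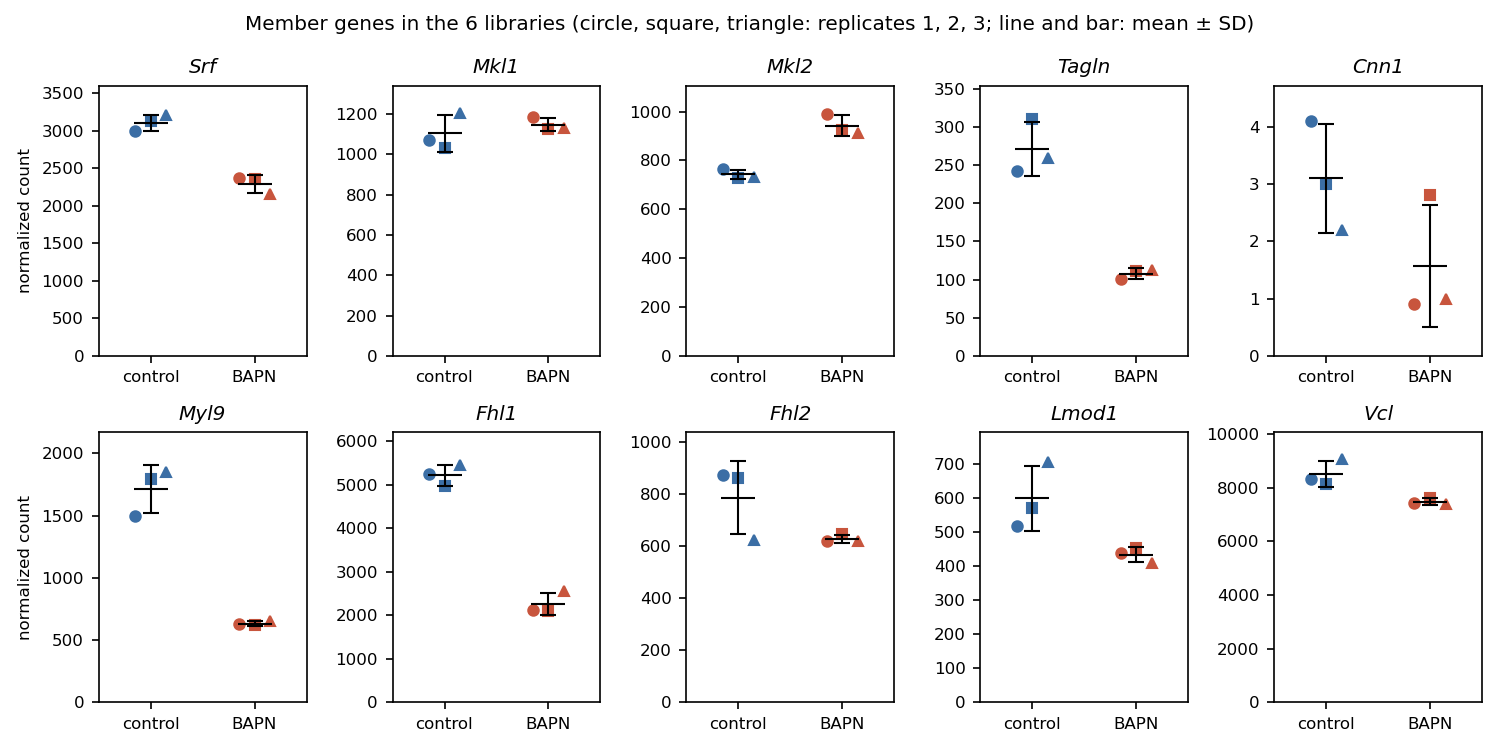
Normalized counts of the member genes in each of the 6 libraries, with BAPN and control libraries side by side and bars at the group means. Myl9, Fhl1 and Tagln show the widest gaps between the groups relative to their level, Mkl2 is the member that lies higher with BAPN, and Mkl1 and Fhl2 overlap.

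The factor itself, Srf (chr17, 46548329 to 46556175, minus strand, GRCm38), was lower with BAPN in every library. In the single libraries its normalized counts were 2373, 2355 and 2158 with BAPN, against 2991, 3126 and 3205.5 in controls. All 3 BAPN libraries lay below the lowest control. The means were 2295.7 ± 119.3 and 3107.7 ± 108.3 (SD, n = 3 each), a 1.35-fold lower level with BAPN (log2 fold change -0.44, SE 0.06, 95% interval -0.58 to -0.29, edgeR adjusted p = 0.0019). Srf was called lower in all 15 alternative settings, with log2 fold changes between -0.47 and -0.37. The gene that carries a pair of CArG boxes in its own promoter, shown above, was among those that fell.

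The coactivators differed from Srf and from each other. Mkl2 (chr16, 13256481 to 13417529, plus strand), which encodes MRTF-B, had normalized counts of 991, 924 and 911 with BAPN, against 765, 729.7 and 734 in controls. Every BAPN library lay above every control. The means of 941.9 ± 43.02 and 743.0 ± 19.37 (SD, n = 3 each) gave a 1.27-fold higher level (log2 fold change 0.34, SE 0.06, 95% interval 0.19 to 0.49, edgeR adjusted p = 0.0053). With replicates 1 and 2 summed the log2 fold change stayed at 0.34 and the call was lost (edgeR adjusted p = 0.0764). Of its 60-base stretches, 2.22% also occur in other annotated transcripts.

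Mkl1 (chr15, 81012281 to 81190757, minus strand), which encodes MRTF-A, had normalized counts of 1185, 1125 and 1134 with BAPN, against 1073, 1032 and 1208 in controls. The groups overlapped, since control replicate 3 was the highest of all 6 libraries. The means were 1147.8 ± 32.29 and 1104.2 ± 92.34 (SD, n = 3 each), with a log2 fold change of 0.06 (95% interval -0.11 to 0.23, edgeR adjusted p = 0.585). The interval leaves room for a fall of 0.11 and a rise of 0.23 on the log2 scale. Without replicate 3 of both groups Mkl1 was called higher (log2 fold change 0.13, edgeR adjusted p = 0.0411). Per kilobase of exon, the control level of Mkl1 (180.6 ± 15.1) was above that of Mkl2 (82.64 ± 2.155).

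Other regulators that act on SRF or the MRTFs moved in both directions. Of the 10 on the list, 8 were tested, of which 3 fell and 1 rose, where 20.8% of all genes fell and 15.6% rose. The median log2 fold change of the 8 was -0.12. This list and those below were chosen with earlier results of these data known, so the counts describe the listed genes only. Abra, which encodes STARS, a muscle actin-binding protein that promotes MRTF activity, fell from 226.3 ± 73.0 to 97.6 ± 17.16 (SD, n = 3 each; log2 fold change -1.21, edgeR adjusted p = 0.0064). The actin-binding LIM proteins Ablim1 and Ablim3, which bind STARS, fell by 0.66 and 0.93 in log2 units (edgeR adjusted p = 2.7e-04 and 0.0068). With replicates 1 and 2 summed, Abra and Ablim3 missed the threshold (edgeR adjusted p = 0.0509 and 0.0523). Among the ternary complex factors, Elk3 rose from 966.2 ± 185.9 to 1420.3 ± 245.8 (log2 fold change 0.56, edgeR adjusted p = 0.0341), while Elk1 and Elk4 had log2 fold changes of 0.05 and 0.13 and were not called (edgeR adjusted p = 0.566 and 0.296). The Elk3 call was lost when any 1 of BAPN replicates 1 and 2 or of control replicates 1 and 3 was left out (edgeR adjusted p 0.0566 to 0.108), and also with replicates 1 and 2 summed (edgeR adjusted p = 0.146), and was kept with the replicate block (edgeR adjusted p = 5.9e-05). Scai, a suppressor of MRTF, had a log2 fold change of -0.10 (adjusted p in edgeR = 0.453). Myocd, which encodes myocardin itself, lay between 2.8 and 7.3 normalized counts in the 6 libraries, and Hopx, an SRF-binding homeodomain protein, between 1.0 and 4.4, both below the filter.

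**Figure D2:**
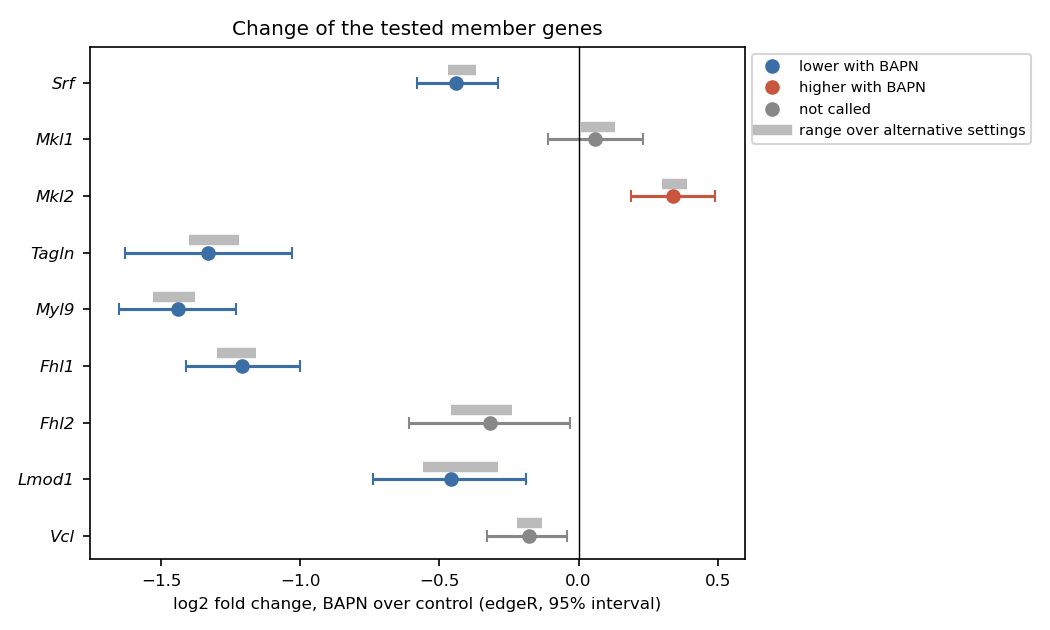
Log2 fold change of each tested member, BAPN over control, with its 95% interval from edgeR. Myl9, Tagln and Fhl1 lie between -1.44 and -1.21, Srf and Lmod1 near -0.45, Vcl and Fhl2 are lower without a call, Mkl1 is near 0 and Mkl2 is higher.

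Among the contractile targets, Myl9 and Tagln had the lowest log2 fold changes of the tested members. Myl9 (chr2, 156775420 to 156781658, plus strand) encodes the regulatory light chain of smooth muscle and nonmuscle myosin, whose phosphorylation switches that myosin on. In the single libraries its normalized counts were 627, 618 and 655 with BAPN, against 1499, 1795 and 1855 in controls. The highest BAPN library was less than the lowest control by a wide margin. The means of 633.3 ± 19.15 and 1716.1 ± 190.6 (SD, n = 3 each) correspond to a 2.71-fold lower level (log2 fold change -1.44, SE 0.09, 95% interval -1.65 to -1.23, edgeR adjusted p = 9.7e-05). None of its 60-base stretches occurs in another annotated transcript.

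Tagln (chr9, 45929619 to 45936058, minus strand) encodes transgelin, also called SM22-alpha, an actin-bundling protein and a classic SRF target. It had normalized counts of 100.2, 111 and 113 with BAPN, against 242.5, 311 and 259.8 in controls. The groups were well apart. From 271.1 ± 35.62 to 108.0 ± 6.808 (SD, n = 3 each) the level was 2.51-fold lower (log2 fold change -1.33, SE 0.13, 95% interval -1.63 to -1.03, edgeR adjusted p = 4.0e-04). Of its 60-base stretches, 56.3% lie antisense to transcripts of Gm48529 or Pcsk7, so without a known strand setting its count is uncertain. Pcsk7 had a mean of 562.8 ± 28.4 with BAPN against 645.4 ± 37.8 without (log2 fold change -0.20, edgeR adjusted p = 0.0781).

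Cnn1 (chr9, 22099216 to 22109630, plus strand), which encodes the smooth muscle form of calponin, an inhibitor of actomyosin sliding, was nearly silent. In the single libraries its raw counts were 1, 3 and 1 with BAPN, against 4, 3 and 2 in controls. With so few reads no difference between the groups was detectable and no fold is given. It was the only member below the filter.

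Lmod1 (chr1, 135324807 to 135368065, plus strand) encodes leiomodin 1, which nucleates actin filaments and is typical of smooth muscle. It had normalized counts of 440.2, 454 and 409 with BAPN, against 519.6, 572 and 706 in controls. The groups did not overlap, and control replicate 3 was the highest. The means were 434.4 ± 22.72 and 599.4 ± 96.27 (SD, n = 3 each), a 1.38-fold lower level (log2 fold change -0.46, SE 0.12, 95% interval -0.74 to -0.19, edgeR adjusted p = 0.0182). The call was lost without BAPN replicate 1 (log2 fold change -0.47, edgeR adjusted p = 0.0528) and with replicates 1 and 2 summed (log2 fold change -0.54, edgeR adjusted p = 0.0773).

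The 2 four-and-a-half LIM proteins, adaptors that bind structural and transcriptional partners, stood apart from each other. Fhl1 (chrX, 56731787 to 56793346, plus strand), abundant in skeletal muscle, had normalized counts of 2126, 2100.2 and 2564 with BAPN, against 5237, 4972 and 5455 in controls. All BAPN libraries were far below all controls. The means of 2263.3 ± 260.4 and 5221.2 ± 241.9 (SD, n = 3 each) gave a 2.31-fold lower level (log2 fold change -1.21, SE 0.09, 95% interval -1.41 to -1.0, edgeR adjusted p = 1.8e-04).

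Fhl2 (chr1, 43123074 to 43196984, minus strand), an MRTF and SRF target that can also bind SRF, had normalized counts of 618, 645 and 621 with BAPN, against 872, 861 and 623 in controls. Control replicate 3 lay within the range of the BAPN libraries, while the other 2 controls were higher. The means were 628.1 ± 15.03 and 785.4 ± 140.4 (SD, n = 3 each), with a log2 fold change of -0.32 (SE 0.13, 95% interval -0.61 to -0.03) that did not pass (edgeR adjusted p = 0.0788). It passed without control replicate 3 (log2 fold change -0.46, edgeR adjusted p = 0.0029), without replicate 3 of both groups (log2 fold change -0.46, edgeR adjusted p = 1.1e-06) and with the replicate block (log2 fold change -0.31, edgeR adjusted p = 0.0217).

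Vcl (chr14, 20929398 to 21033676, plus strand) encodes vinculin, which links integrin and cadherin adhesions to actin. It had normalized counts of 7413.5, 7624 and 7410.0 with BAPN, against 8326, 8135 and 9056 in controls. The groups did not overlap, yet the gap was small beside the level. The means were 7482.6 ± 122.7 and 8505.6 ± 486.3 (SD, n = 3 each), with a log2 fold change of -0.18 (SE 0.06, 95% interval -0.33 to -0.04) just outside the threshold (edgeR adjusted p = 0.0545). It passed with the replicate block (edgeR adjusted p = 0.0258), in DESeq2 (adjusted p = 0.0429) and in 2 further settings. Of its 60-base stretches, 25% lie antisense to Ap3m1, which itself fell from 924.0 ± 36.7 to 808.4 ± 2.6 (log2 fold change -0.19, edgeR adjusted p = 0.0399).

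Of the 10 members, 7 were lower in the authors' deposited table and 1 was higher at an adjusted p under 0.05, where 15.8% and 11.8% of its genes were. The authors' deposited table thus also called Fhl2 (log2 fold change -0.31, adjusted p = 0.0241) and Vcl (log2 fold change -0.18, adjusted p = 0.0476). Mkl1 and Cnn1 were not called in the authors' deposited table.

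**Figure D3:**
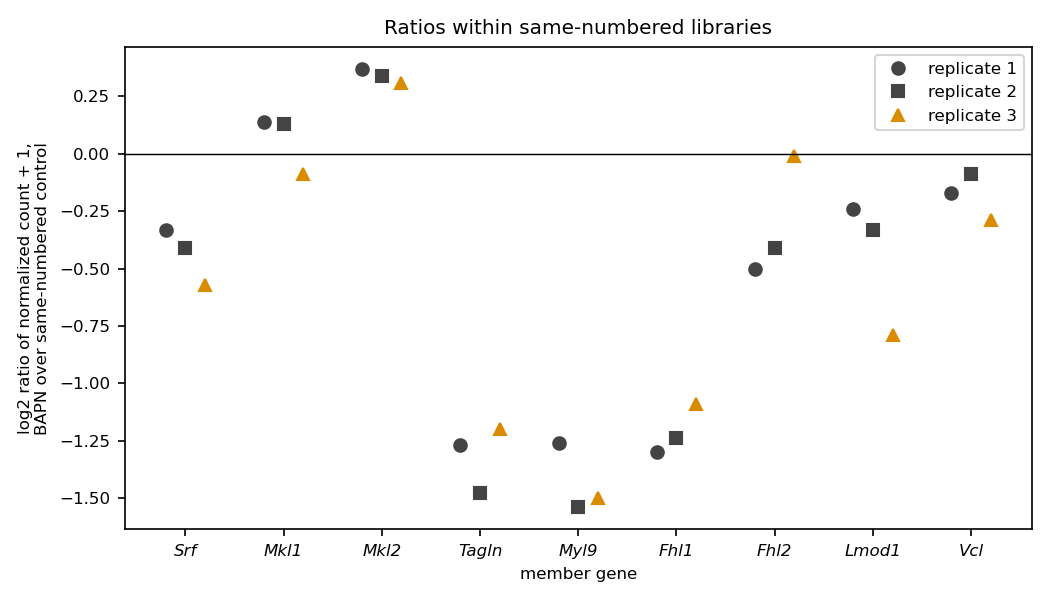
Log2 ratio of BAPN over the control library with the same replicate number, on normalized counts plus a pseudocount of 1, for each tested member. Myl9, Tagln and Fhl1 lie at or below -1.09 in all 3 pairs, Mkl2 above 0.3 in all 3, and replicate 3 departs from the other pairs for Mkl1, Fhl2 and Lmod1.

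Within same-numbered libraries, the ratios kept the same direction in all pairs for every tested member except Mkl1. On log2(normalized count + 1), Mkl2 was higher by 0.37, 0.34 and 0.31 in replicates 1, 2 and 3. Fhl1 had ratios of -1.30, -1.24 and -1.09, and Srf -0.33, -0.41 and -0.57. For these members every pair showed the same direction. Fhl2 had -0.50, -0.41 and -0.01, and Lmod1 -0.24, -0.33 and -0.79, all below 0 as well. Replicate 3 was the weakest pair for Fhl2 and the strongest for Lmod1. Mkl1 had 0.14, 0.13 and -0.09, with the sign of replicate 3 opposite to the others.

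Per kilobase of exon, the order of the members differed between the groups. In controls, the mean normalized count per kilobase was highest for Myl9 (1476.9 ± 164.1) and Fhl1 (1405.8 ± 65.14), followed by Srf (1074.2 ± 37.43), Vcl (1038.4 ± 59.37) and Fhl2 (414.0 ± 74.03). Then came Mkl1, Lmod1 (151.8 ± 24.38), Tagln (136.4 ± 17.92), Mkl2 and Cnn1 (1.133 ± 0.3487). The ranges of Myl9 and Fhl1, of Srf and Vcl, of Mkl1 and Lmod1, and of Lmod1 and Tagln overlapped, so these neighbours could not be ordered. With BAPN, Vcl was highest (913.5 ± 14.98), ahead of Srf (793.5 ± 41.23), Fhl1 (609.4 ± 70.1) and Myl9 (545.0 ± 16.48). Next were Fhl2 (331.1 ± 7.925) and Mkl1 (187.7 ± 5.282). Lmod1 (110.0 ± 5.755) and Mkl2 (104.8 ± 4.786) overlapped, and Tagln (54.31 ± 3.424) and Cnn1 (0.5726 ± 0.3908) were lowest. Thus Myl9 and Fhl1 led in controls and stood below Vcl and Srf with BAPN, and Mkl2 moved from below Tagln to above it.

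The near relatives of the member targets mostly fell as well. Of 14 relatives, 11 were tested, 8 fell and 0 rose in edgeR, where 20.8% of all genes fell and 15.6% rose. At an unadjusted p under 0.05, 0 relatives rose, and 0 rose in DESeq2 and limma. Their median log2 fold change was -0.41. The other 2 leiomodins, the skeletal and cardiac forms Lmod2 and Lmod3, fell from 2772.2 ± 704.6 to 1123.6 ± 226.3 and from 8562.1 ± 1674.8 to 4447.8 ± 615.2 (SD, n = 3 each; log2 fold changes -1.30 and -0.94, edgeR adjusted p = 0.0022 and 0.0027). Among the calponins, Cnn2 fell by 0.52 and Cnn3 by 0.30 in log2 units (edgeR adjusted p = 7.1e-04 and 0.0211). Both were far more abundant than Cnn1, with control means of 4256.8 ± 186.2 and 14571.8 ± 831.5 normalized counts. Cnn3 lost its call without BAPN replicate 1 or 2 or control replicate 1 (edgeR adjusted p 0.059 to 0.0879). It was also lost with replicates 1 and 2 summed (edgeR adjusted p = 0.172).

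Tagln2, the more broadly expressed transgelin, fell from 2683.6 ± 660.5 to 1545.9 ± 163.6 (SD, n = 3 each; log2 fold change -0.80, edgeR adjusted p = 0.0101). Of the light chains, Myl12a fell by 0.53, Myl6 by 0.41 and Myl12b by 0.30 in log2 units (edgeR adjusted p = 0.0011, 0.0012 and 0.0164). Myl12b lost its call without BAPN replicate 2 or control replicate 2 (edgeR adjusted p = 0.0598 and 0.0538). With replicates 1 and 2 summed, Tagln2 and Myl12b missed the threshold (edgeR adjusted p = 0.0879 and 0.0845). Myl12a and Myl12b are nearly identical in sequence, and how reads that match both were counted is not given in the sources used here. Fhl3 (log2 fold change 0.19, edgeR adjusted p = 0.218) and Fhl4 (log2 fold change 0.65, edgeR adjusted p = 0.209, mean normalized count 12.22) were not called, so that Fhl1 was the called gene among the LIM proteins of this family. Fhl3 was called higher without BAPN replicate 3 (edgeR adjusted p = 0.0103). Ctnna1, the alpha-catenin related to vinculin, had a log2 fold change of -0.06 (adjusted p in edgeR = 0.443). Fhl5 had no count in any library, and Tagln3 was below the filter.

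Beyond the members, 28 further genes known as cytoskeletal targets of SRF and MRTF were listed, of which 27 were tested. Of these, 19 fell and 0 rose in edgeR (0 at an unadjusted p under 0.05, and 0 in DESeq2 and limma). The median log2 fold change of the list was -0.44. Among all genes tested, 20.8% fell and 15.6% rose. The list was chosen with earlier results of these data known. Acta2, smooth muscle alpha-actin, had normalized counts of 21247.5, 21610.5 and 24162 with BAPN, against 39597, 40917 and 51117 in controls. All BAPN libraries lay below all controls, and the means of 22340.1 ± 1588.5 and 43877.0 ± 6304.5 (SD, n = 3 each) gave a 1.96-fold lower level (log2 fold change -0.97, edgeR adjusted p = 8.1e-04). Wdr1, which helps cofilin disassemble actin filaments, fell from 7335.0 ± 106.8 to 5392.4 ± 60.11 (log2 fold change -0.44, edgeR adjusted p = 9.8e-04). The striated muscle actins Acta1 and Actc1, named after their values were seen, fell by 0.97 and 1.51 in log2 units (edgeR adjusted p = 0.0032 and 0.0015). The cytoplasmic actins Actb and Actg1 had log2 fold changes of -0.25 and -0.12 and were not called, nor were Flna (0.01), Myh9 (0.18), Actn1 (0.12), Filip1l (0.10), Tln1 (-0.16) and Tpm4 (-0.31). With the replicate block, 22 of the list fell, where 27.0% of all genes did. Actb, Tpm4 and Tln1 were among the 22 (edgeR adjusted p = 0.0046, 0.005 and 0.0318), and Myh9 rose (edgeR adjusted p = 0.0261). Without control replicate 3 alone, Tpm4 was also called lower (log2 fold change -0.47, edgeR adjusted p = 0.0146). Actins are close in sequence, and how reads shared between them were counted is not given in the sources used here. With replicates 1 and 2 summed, 7 of the list fell, where 5.90% of all genes did. Acta1 then missed the threshold (edgeR adjusted p = 0.051).

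**Figure D4:**
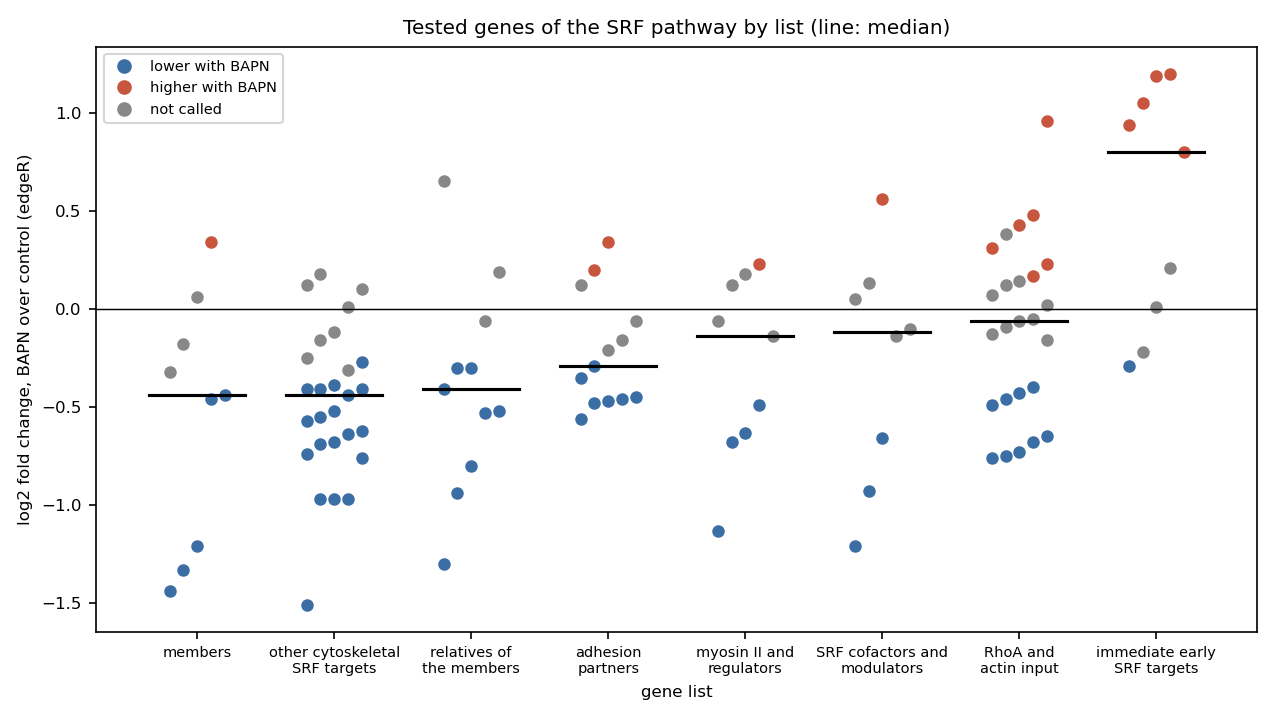
Log2 fold changes of the tested genes of each list, BAPN over control, with the list medians. The cytoskeletal targets lie mostly below 0 with a median of -0.44, the immediate early targets mostly above 0 with a median of 0.80, and the RhoA and actin input genes on both sides.

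Among the listed immediate early genes, which SRF serves with the ternary complex factors, more rose than fell. Of 9 tested, 5 rose (Egr1, Egr3, Fos, Fosb and Ier2) and 1 fell (Nr4a1), where 15.6% of all genes rose and 20.8% fell. The median log2 fold change of the 9 was 0.80. Egr2 (0.21), Mcl1 (0.01) and Junb (-0.22) were not called. Junb was called lower with the replicate block (edgeR adjusted p = 0.0173) and without replicate 3 of both groups (edgeR adjusted p = 9.7e-04). Fos had normalized counts of 1385, 1323.5 and 1606 with BAPN, against 728.5, 510.2 and 639 in controls. The lowest BAPN library was above the highest control (means 1438.3 ± 148.6 and 625.9 ± 109.7, SD, n = 3 each; log2 fold change 1.20, edgeR adjusted p = 6.9e-04). Egr1 rose from 1437.9 ± 369.9 to 3283.2 ± 320.2 (log2 fold change 1.19, edgeR adjusted p = 0.0017) and Ier2 from 365.1 ± 22.33 to 757.4 ± 94.0 (log2 fold change 1.05, edgeR adjusted p = 4.6e-04). Egr3 and Fosb, with log2 fold changes of 0.80 and 0.94, and Nr4a1, with -0.29, were named after their values were seen (edgeR adjusted p = 0.0086, 0.0312 and 0.0409). Fosb lost its call without BAPN replicate 1 or 2 or control replicate 2 (edgeR adjusted p 0.0839 to 0.0894). With replicates 1 and 2 summed, Egr3 and Fosb missed the threshold (edgeR adjusted p = 0.073 and 0.101). The Nr4a1 call was lost under 10 of 15 alternatives, among them both other scalings (edgeR adjusted p = 0.0724 and 0.0632), while its log2 fold change in the fit without replicate 3 was -0.22.

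Genes upstream of the MRTFs were divided. Of 25 genes for RhoA signalling, actin turnover and nuclear import of MRTF, 9 fell and 6 rose, with a median log2 fold change of -0.06. Among all genes tested, 20.8% fell and 15.6% rose. Lmna, which encodes the lamins A and C needed for nuclear MRTF, fell from 22480.4 ± 900.2 to 13295.8 ± 512.2 (SD, n = 3 each; log2 fold change -0.76, edgeR adjusted p = 3.0e-04). Mical2, a nuclear enzyme that oxidises actin and favours MRTF, fell by 0.75 and Tmsb4x, which encodes the actin monomer-binding thymosin beta-4, by 0.73 in log2 units (edgeR adjusted p = 2.7e-04 and 4.0e-04). Among those that rose, Arhgef11, an exchange factor that activates RhoA, was named after its values were seen (log2 fold change 0.96, edgeR adjusted p = 4.1e-04). Rhoa itself had a log2 fold change of -0.13 (adjusted p in edgeR = 0.143).

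Around vinculin, 7 of 13 adhesion partners fell and 2 rose, where 20.8% of all genes fell and 15.6% rose. The median log2 fold change of the partners was -0.29. Vasp, which promotes actin filament growth, fell from 13390.8 ± 266.5 to 9582.4 ± 315.2 (SD, n = 3 each; log2 fold change -0.48, edgeR adjusted p = 0.0011), and Tln2, the talin of mature muscle, fell by 0.46 in log2 units (edgeR adjusted p = 0.004). Pxn, the adaptor paxillin, rose from 5389.6 ± 254.7 to 6810.0 ± 124.4 (log2 fold change 0.34, edgeR adjusted p = 0.0044), and so did Ptk2, focal adhesion kinase, named after its values were seen (log2 fold change 0.20, edgeR adjusted p = 0.0228). The Ptk2 call was lost without BAPN replicate 1 or 2 or control replicate 1 or 2 (edgeR adjusted p 0.051 to 0.0926). With replicates 1 and 2 summed, Pxn and Ptk2 missed the threshold (edgeR adjusted p = 0.0888 and 0.171).

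Around Myl9, 4 of 9 tested genes of myosin II and its control fell and 1 rose (Rock1), with a median log2 fold change of -0.14. Among all genes tested, 20.8% fell and 15.6% rose. Myh10, a nonmuscle myosin heavy chain, fell from 1265.9 ± 32.94 to 818.4 ± 56.16 (SD, n = 3 each; log2 fold change -0.63, edgeR adjusted p = 6.7e-04). Myh14 and Ppp1r12b, a subunit of myosin phosphatase, fell by 1.13 and 0.49 in log2 units (edgeR adjusted p = 0.0095 and 0.0182), the latter without a call when BAPN replicate 1 or 2 was left out (edgeR adjusted p = 0.0654 and 0.0635). Rock1, a kinase that RhoA activates, rose by 0.23 (edgeR adjusted p = 0.0287), a call lost without BAPN replicate 2 or any 1 control (edgeR adjusted p 0.063 to 0.0826). With replicates 1 and 2 summed, Myh14, Ppp1r12b and Rock1 missed the threshold (edgeR adjusted p = 0.0549, 0.0836 and 0.134).

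Markers of cell types moved in both directions, where 20.8% of all genes tested fell and 15.6% rose. In bulk RNA, fewer cells of a type and less RNA per cell cannot be told apart. Of 7 myogenic markers, 5 fell, and their summed level ran from 105653.5 to 109433 with BAPN against 170048 to 187364 in controls. Myog, a factor that drives myocyte differentiation, fell by 1.33, Cdh15 by 0.54 and Ckm, the muscle creatine kinase, by 1.5 in log2 units (edgeR adjusted p = 1.4e-04, 0.001 and 0.0032). The other 2 were not called. Pax7, the satellite cell marker, had 1758, 1629 and 900.5 normalized counts with BAPN and 1287, 1219.6 and 1155 in controls, so that BAPN replicate 3 was the lowest of all and the other BAPN libraries the highest (log2 fold change 0.23, edgeR adjusted p = 0.442). Without BAPN replicate 3 it was called higher (log2 fold change 0.47, edgeR adjusted p = 0.0021). Myf5, an early myogenic factor, had a log2 fold change of 0.04 (adjusted p in edgeR = 0.928), and without that library it was called lower (log2 fold change -0.38, edgeR adjusted p = 0.0117). Of 10 smooth muscle and pericyte markers, 7 were tested and 6 fell, with sums of 26625 to 30128 against 47845 to 61996, most of it Acta2. Acta2, Smtn, Actg2 and Myh11 are also among the listed cytoskeletal SRF targets, so the 2 lists are not independent. Cspg4 and Rgs5 fell by 1.34 and 1.17 in log2 units (edgeR adjusted p = 3.3e-04 and 0.0023). The defining Myh11 lay between 3.7 and 8.8 normalized counts in all 6 libraries, Myocd between 2.8 and 7.3, and Kcnj8 was at 0 in the 3 controls and 1 BAPN library.

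Of 8 fibroblast markers, 5 were tested and 2 fell (Col3a1 and Col1a1, by 0.84 and 0.69 in log2 units, edgeR adjusted p = 0.001 and 0.0171), with sums of 3052 to 3709.6 against 4736 to 6608. Pdgfra, which marks fibroblasts of muscle, had 67.8 ± 15.94 normalized counts with BAPN against 42.87 ± 11.53 without (SD, n = 3 each) and was not called (edgeR adjusted p = 0.0771), but was called higher with the replicate block (edgeR adjusted p = 0.0208) and without BAPN replicate 3 (edgeR adjusted p = 0.0431). The Col1a1 call was lost without BAPN replicate 1 or control replicate 2 (edgeR adjusted p = 0.0604 and 0.0513). Of 5 endothelial markers 0 were called in edgeR and 0 in DESeq2, with 2 at an unadjusted p under 0.05, and sums were 254.8 to 291.5 against 210.9 to 251.9. Vwf had a log2 fold change of 0.36 (adjusted p in edgeR = 0.0529) and was called higher with the replicate block (edgeR adjusted p = 0.037), with TMM and median-ratio scaling (edgeR adjusted p = 0.0361 and 0.0411), without control replicate 3 (edgeR adjusted p = 0.0292) and in 2 further settings. Cdh5 had a log2 fold change of 0.84 (adjusted p in edgeR = 0.074) and was called higher without BAPN replicate 3 (edgeR adjusted p = 0.0346) and without replicate 3 of both groups (edgeR adjusted p = 0.0033). Of 5 macrophage markers 2 were tested: Cd68 rose by 2.32 and Itgam fell by 1.1 in log2 units (edgeR adjusted p = 0.0012 and 0.0162), while Ptprc and Adgre1 stayed at or below 5.5 and 2.1 normalized counts. The Itgam call was lost without BAPN replicate 1 or 2 (edgeR adjusted p = 0.0596 and 0.057) and with replicates 1 and 2 summed (edgeR adjusted p = 0.0771). Of 6 Schwann cell and tenocyte markers 3 were tested: Scx fell by 0.66 and Mkx rose by 1.00 in log2 units (edgeR adjusted p = 0.0011 and 0.0091), and Sox10 stayed at or below 1.1. Mkx missed the threshold with replicates 1 and 2 summed (edgeR adjusted p = 0.0569). The part of these markers in the results on SRF targets was not tested.

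The genes whose pattern over the 6 libraries lay nearest to that of a member were found among 10159 genes by the root mean square difference of centred log2 values. For Srf these were Vps33a (0.019), Traf4 (0.021) and 1810055G02Rik (0.029). For Mkl1 they were Atp1b3 (0.019), Banp (0.021) and Vps13d (0.031). For Tagln they were Gja5 (0.131) and Derl3 (0.136), farther from it than the nearest genes of Srf and Mkl1 were from theirs.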

How the data were processed

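RNA sequencing counts of 6 libraries (3 with BAPN, 3 controls, grouped by the labels' treatment entries and numbered by the titles) were analysed. Per the labels' protocols, libraries were made in-house and read in 1 lane as single reads of 60 nt. The submitters' processing notes name GRCm38 (mm10) and the tools STAR, cutadapt, DESeq2 and HTSeq. Which versions and gene models were used, and whether counting was stranded, is not given in the sources used here. Raw counts were deposited by gene symbol (18864 symbols, 0 rows without a name). They also deposited normalized counts, a signal that equals the count divided by a size factor for each library. A further 6 columns that repeat these were not used. The authors deposited their own log2 fold change, p-value and adjusted p-value per gene.

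The 13716 genes whose normalized counts averaged 10 or more were tested with edgeR 4.0.16 (R 4.3.3; glmQLFit and glmQLFTest) on the counts, scaled by the authors' size factors, BAPN against control without a block, with Benjamini-Hochberg adjustment over all of them. A call is an adjusted p under 0.05. The fit was tried on simulated counts in which all libraries varied alike and independently. That setting lacks the closeness of replicates 1 and 2 seen here, so it does not show how the test behaves in these data. Alternatives were the replicate block, TMM and median-ratio scaling, no filter, a minimum of 100, DESeq2 1.42.0, limma 3.58.1 (trend), each library left out in turn, replicate 3 left out, and replicates 1 and 2 summed. Levels per kilobase use GENCODE M21 exons. A 60-base stretch is as long as a read, and was compared with all M21 transcripts on both strands.

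The series text calls the replicates independent, and the p-values rest on the spread between the libraries. The labels do not say what a replicate number marks. Deviations from the group means correlated by 0.184, 0.191 and 0.366 between same-numbered libraries. BAPN replicate 1 correlated more with control replicate 2 (0.229), so these values do not show how replicates 1 and 2 pair. The numbers were used as pairs only in the replicate block and in the ratios within same-numbered libraries, and the main test was unpaired.

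Members and gene lists were chosen with earlier results of these data known. Named were the 10 members, the 3 genes of smallest p in each list, all tested cofactors and relatives, and the 3 nearest patterns to Srf, Mkl1 and Tagln. Of these, 2 genes are not reported here by name. Other named genes, and the promoter search, were chosen after values were seen. Promoter sequences are from RefSeq (GRCm38.p6).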

Additional observations from a re-analysis of the deposited data

How the results depend on the processing

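Of the 15 alternatives, all kept the calls of Srf, Tagln, Myl9 and Fhl1, and no member changed direction in a called value. The replicate block made Fhl2 (-0.31) and Vcl (-0.18) called lower, raised 1 cytoskeletal target (Myh9), and changed no other member call. Without replicate 3 of both groups, 2 members rose (Mkl1 at 0.13 beside Mkl2), Fhl2 (-0.46) and Vcl (-0.13) fell, 2 cytoskeletal targets rose (Actn1 and Myh9), Lmod1 stayed lower (-0.29), and 3223 of all genes rose and 4265 fell. With replicates 1 and 2 summed, 0 members rose (Mkl2 0.34, Lmod1 -0.54, neither called), 7 cytoskeletal targets fell, and 716 of all genes rose and 809 fell, with 2 libraries a group in that fit. Vcl (-0.18) was also called with a minimum mean of 100 and in DESeq2. All these values besides counts are log2 fold changes.

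Leaving out 1 library at a time gave 1862 (without BAPN replicate 2) to 3113 genes that fell, against 2850 in all libraries, and 1461 to 2329 that rose, against 2140. It gave log2 fold changes of -0.46 to -0.24 for Fhl2, called without control replicate 3, 0.01 to 0.13 for Mkl1, -0.22 to -0.14 for Vcl and -0.56 to -0.33 for Lmod1, not called without BAPN replicate 1. The cause of these changes was not tested, beyond the smaller number of libraries. Counts near 0 limit Cnn1, for which the fit with no filter gave -0.91 (95% interval -2.49 to 0.67, edgeR adjusted p = 0.388).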

Other observations

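Over all tested genes, those with a CArG box in their RefSeq promoter window (167) were described beside those without. With BAPN 48 of the 167 fell (28.7%) and 21 rose (12.6%), with a median log2 fold change of -0.10. Leaving out the member genes, 45 of 162 fell (27.8%) and 21 rose (13.0%), with a median of -0.08. Among 10301 tested genes with a window and no box, 2197 fell (21.3%) and 1661 rose (16.1%), with a median of -0.03. The motif search was chosen after the data were seen, and the difference was not tested.

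The genes with a box outside the members that had the smallest p-values went both ways. Ampd3, which encodes an AMP deaminase, rose from 499.2, 517 and 447 normalized counts in controls to 1438, 1469.7 and 1757 with BAPN (log2 fold change 1.67, edgeR adjusted p = 8.4e-05). Ldha, the glycolytic lactate dehydrogenase A, rose by 0.71 in log2 units (edgeR adjusted p = 6.4e-04). Lima1, an actin-bundling LIM protein, fell from 12343, 12533 and 13455 to 9084, 9128 and 8585 (log2 fold change -0.52, edgeR adjusted p = 0.0011). Of the listed cytoskeletal targets with a window, 5 of 23 held a box (Acta1, Actc1, Actg1, Cnn2 and Filip1l), and of the immediate early genes 1 of 6 (Egr2). A gene without a match can still hold a box outside its window.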
